A study of Mus musculus with 6 samples.

Results

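Glucocorticoids and other stress signals induce a recognisable set of transcripts in many tissues, and 8 of them were examined in RIP-seq libraries of the mouse left ventricle: the metallothioneins Mt1 and Mt2, the immunophilin Fkbp5, the kinase Sgk1, the cell-cycle inhibitor Cdkn1a, the transcriptional regulators Tsc22d3 and Zbtb16, and the ErbB receptor inhibitor Errfi1. The genes were taken by name, as metallothioneins and genes induced by steroids or stress after implantation of a pump, and each was found among the 46072 genes of the separate tables of the libraries. These 8 genes were chosen with earlier results of these data known. RIP-seq, RNA immune-precipitation followed by sequencing, reads the RNAs recovered with an antibody to a protein, here EZH2, the histone methyltransferase of Polycomb repressive complex 2, and with normal IgG as the background. The mice were males of 10 weeks with the strain label C57BL/6, except that the labels of the anti-EZH2 libraries of AngII 4 h and AngII 24 h read C57BL/7 and C57BL/8. They formed 3 groups of 2 mice: Sham, in which the osmotic minipump delivered saline according to the methods and the deposited treatment label is Untreated, and Angiotensin II (AngII) delivered by the same kind of pump at 1 mg/kg/min for 4 h or for 24 h. How long the Sham mice carried their pump is not given in the sources used here, so that time after surgery and AngII cannot be told apart in a comparison with Sham.

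From each group, 2 RIP products were mixed into each library, which gave 1 anti-EZH2 and 1 IgG library per group, 6 libraries in all. No comparison of treatments could be tested, because there were no replicates and the anti-EZH2 and IgG libraries of a group came from the same 2 mice. Both values are therefore given throughout, and a gene was called when it was past 2-fold in the same direction with both antibodies. The unit is the deposited FPKM, in which fragments are scaled to the length of the transcript and to the mapped fragments of the library and which allows levels of different genes to be compared per length. Differences are on the scale of log2(FPKM + 0.5), which understates the change of low genes, and are relative to the median of the 8507 genes with a mean FPKM of at least 1. That median moved by between -0.36 and 0.27 on the log2 scale between treatments. The sources used here give no depth, and an estimate from the widths of the FPKM intervals lay between 4.15e+06 and 8.28e+06 fragments per library.

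When a glucocorticoid reaches a cell, it binds the glucocorticoid receptor, which is held by HSP90 and its cochaperones, and the complex enters the nucleus and binds response elements near genes such as Fkbp5, Tsc22d3 (GILZ), Zbtb16 (PLZF), Sgk1 and Per1. FKBP5 in turn lowers the affinity of the receptor for its ligand. Metallothioneins bind zinc and copper, and their genes respond both to metals, through the factor MTF1, and to glucocorticoids. Cdkn1a encodes p21, which stops the cell cycle and is a target of p53 as well as of steroids. Aldosterone, whose secretion AngII stimulates, acts through the related mineralocorticoid receptor.

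The labelled tissue was checked first. The 6 cardiomyocyte markers (Myh6, Tnnt2, Actc1, Myl2, Ttn and Tnni3) were above 0 in every library. Their summed FPKM was 6154 in Sham, 8296 at AngII 4 h and 7384 after 24 h with IgG, and 4765, 7414 and 4945 with anti-EZH2, so that it was highest at AngII 4 h with both. Of these markers, 5 of 6 were higher at AngII 4 h than in Sham with both antibodies, where 28.9% of all tested genes were. None was higher past 2-fold, where 2.02% were, and the median difference was 0.34. The direction was that of 6 of the members, and the part of these markers in the results of those members was not tested. Of 4 atrial markers, Myl7 had an FPKM of 14.3 and 12.2 in the Sham IgG and anti-EZH2 libraries and of at most 0.491 in the 4 AngII libraries, and Myl4 had 9.50 and 6.57 against at most 0.562, while Sln was listed at 0 everywhere. Nppa, the remaining atrial marker, had 20.2 and 10.8 in Sham, 10.6 and 10.2 at AngII 4 h, and 5.14 and 5.36 after 24 h. The Sham libraries therefore stood apart in Myl7 and Myl4, and the part of this in any comparison with Sham was not tested. All 8 members passed the minimum of a mean FPKM of 1. The comparison of AngII 24 h with AngII 4 h uses no Sham library and is given for every member. In that comparison the time under AngII and the time since the pump was implanted run together and cannot be told apart. In these bulk samples, fewer cells of a type and less RNA per cell cannot be told apart.

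Sequences upstream of the annotated starts are shown for the metallothioneins, whose levels differed most between treatments or were highest, and for the only member whose windows held a complete glucocorticoid response element. The windows are the 250 bases before a RefSeq transcript start (GRCm38.p6, the assembly of the files), on the strand of the gene, 5′ to 3′. Capitals mark, for Mt2 and Mt1, the core of a metal response element (TGCGCNC or TGCACNC on either strand) and, for Sgk1, a glucocorticoid response element (AGAACA and TGTTCT with any 3 bases between them).

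Mt2, chr8:94172368-94172617, plus strand: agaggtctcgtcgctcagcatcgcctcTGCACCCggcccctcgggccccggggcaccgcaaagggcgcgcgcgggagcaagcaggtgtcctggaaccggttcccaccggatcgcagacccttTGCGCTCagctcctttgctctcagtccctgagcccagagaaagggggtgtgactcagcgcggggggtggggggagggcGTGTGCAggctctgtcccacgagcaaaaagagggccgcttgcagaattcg

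Mt1, chr8:94178839-94179088, plus strand: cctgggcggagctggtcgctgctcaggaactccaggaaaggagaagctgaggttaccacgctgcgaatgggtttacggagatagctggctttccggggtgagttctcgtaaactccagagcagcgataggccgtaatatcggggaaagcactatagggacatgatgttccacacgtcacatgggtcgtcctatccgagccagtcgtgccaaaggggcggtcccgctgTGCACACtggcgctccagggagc

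Sgk1, chr10:21993640-21993889, plus strand: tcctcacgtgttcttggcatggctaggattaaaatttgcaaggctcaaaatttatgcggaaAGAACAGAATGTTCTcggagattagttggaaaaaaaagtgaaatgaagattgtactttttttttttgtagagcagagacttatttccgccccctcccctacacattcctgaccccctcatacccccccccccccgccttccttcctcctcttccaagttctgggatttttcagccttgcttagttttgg

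The Mt2 window held 3 metal response element cores and the Mt1 window held 1. At least 1 such core was found in 21.4% of 32851 promoters of the same length, and at least 3 in 1.26%. The complete glucocorticoid response element was found in 1 of the 16 windows of the 7 members with a promoter in the table (Errfi1, Mt1, Mt2, Sgk1, Fkbp5, Cdkn1a and Tsc22d3) and in 3 of all 32851 promoters. Its half-sites AGAACA and TGTTCT, which overlap the complete element, were found in 4 of the 16 windows, 3 of Sgk1 and 1 of Tsc22d3, against 16.1% of all promoters. These are matches of letters in short windows, and a window with few or without one says nothing about elements elsewhere. The counts for Mt2 and Mt1 hold for the windows shown and not for the whole promoters. By GENCODE M21, the Mt2 window lies within an exon of the antisense gene Gm45774, the last 7 bases of the Mt1 window are annotated as 5′ UTR of another Mt1 transcript, and the Sgk1 window holds no exon and lies within the Sgk1 locus.

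Mt2 was the member with the largest difference between AngII 4 h and either other treatment, as the mean of both antibodies. This gene (ENSMUSG00000031762, chr8:94172618-94173567 in mm10, plus strand) encodes a small cysteine-rich protein that binds zinc and copper. In the IgG libraries, its FPKM was 5.88 in Sham, 26.4 at AngII 4 h and 4.44 after 24 h. The anti-EZH2 libraries gave 4.46, 26.6 and 2.96 in the same order. Both 4-h libraries were above the other 4 by more than 4-fold in FPKM, and with either antibody the deposited FPKM intervals of AngII 4 h did not overlap those of Sham or AngII 24 h.

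At AngII 4 h, Mt2 was higher than in Sham by 1.91 (IgG) and 2.17 (anti-EZH2) on the log2 scale, a fold of 3.76 and 4.51 relative to the median gene. At AngII 24 h it differed from AngII 4 h by -2.51 and -2.61, and from Sham by -0.60 and -0.43. Mt2 was the only 1 of the 8 members called past 2-fold at AngII 4 h above Sham, where 2.02% of the 8507 genes were called, and the only 1 called at AngII 24 h below AngII 4 h, where 1.94% were called. Of all genes called between AngII 4 h and Sham, 40.7% were higher, and without centring on the median 65.5% were; Mt2 was called either way.

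The reads behind Mt2 were few outside the 4-h libraries. If the width of an FPKM interval is taken as counting error, it is that of about 8 reads in each Sham library, 40 (IgG) and 52 (anti-EZH2) at AngII 4 h, and 7 in each library of AngII 24 h. The ratio of AngII 4 h to Sham from these reads, before centring, was 3.40 (exact 95% interval 1.57-8.41) with IgG and 4.54 (2.14-11.1) with anti-EZH2, and that of AngII 24 h to AngII 4 h was 0.238 (0.0899-0.536) and 0.139 (0.0531-0.306). These intervals cover counting error and not the spread between mice. The FPKM of Mt2 lay above the upper end of its own interval in both 4-h libraries and inside it in the other 4. With the interval midpoints in place of the FPKM, Mt2 was 1.62 and 1.92 higher at AngII 4 h than in Sham on the log2 scale.

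Mt1 lies 5521 bases downstream of Mt2 on the same strand (ENSMUSG00000031765, chr8:94179089-94180325, plus strand) and encodes the paralogous metallothionein. It was the highest of the 8 members, with an FPKM of 46.5 in Sham, 82.3 at AngII 4 h and 63.6 after 24 h with IgG. With anti-EZH2 the FPKM was 35.3, 86.8 and 28.5. The 4-h libraries were again the 2 highest, while the AngII 24 h values of the antibodies stood on either side of those of Sham.

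The difference of Mt1 between AngII 4 h and Sham was 0.65 (IgG) and 1.01 (anti-EZH2), and its intervals did not overlap with either antibody. Between AngII 24 h and AngII 4 h it differed by -0.44 and -1.23, and the intervals overlapped with IgG. About 51, 101 and 52 reads stood behind the IgG values by the interval widths, and 51, 123 and 30 behind those of anti-EZH2. The ratio of AngII 4 h to Sham was 1.69 (1.20-2.42) and 2.37 (1.69-3.35) from these reads. The FPKM of Mt1 lay above its own interval in 5 of 6 libraries, the exception being AngII 24 h with anti-EZH2, and was 1.34 to 1.47 times its midpoint, so that its level depends on the estimate used more than its ratios do. The longest run of bases that any annotated Mt1 and Mt2 transcripts share was 20 nt. Mt2 overlaps Gm45774 on the opposite strand, and whether the strand was used in counting is not given in the sources used here.

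**Figure D1:**
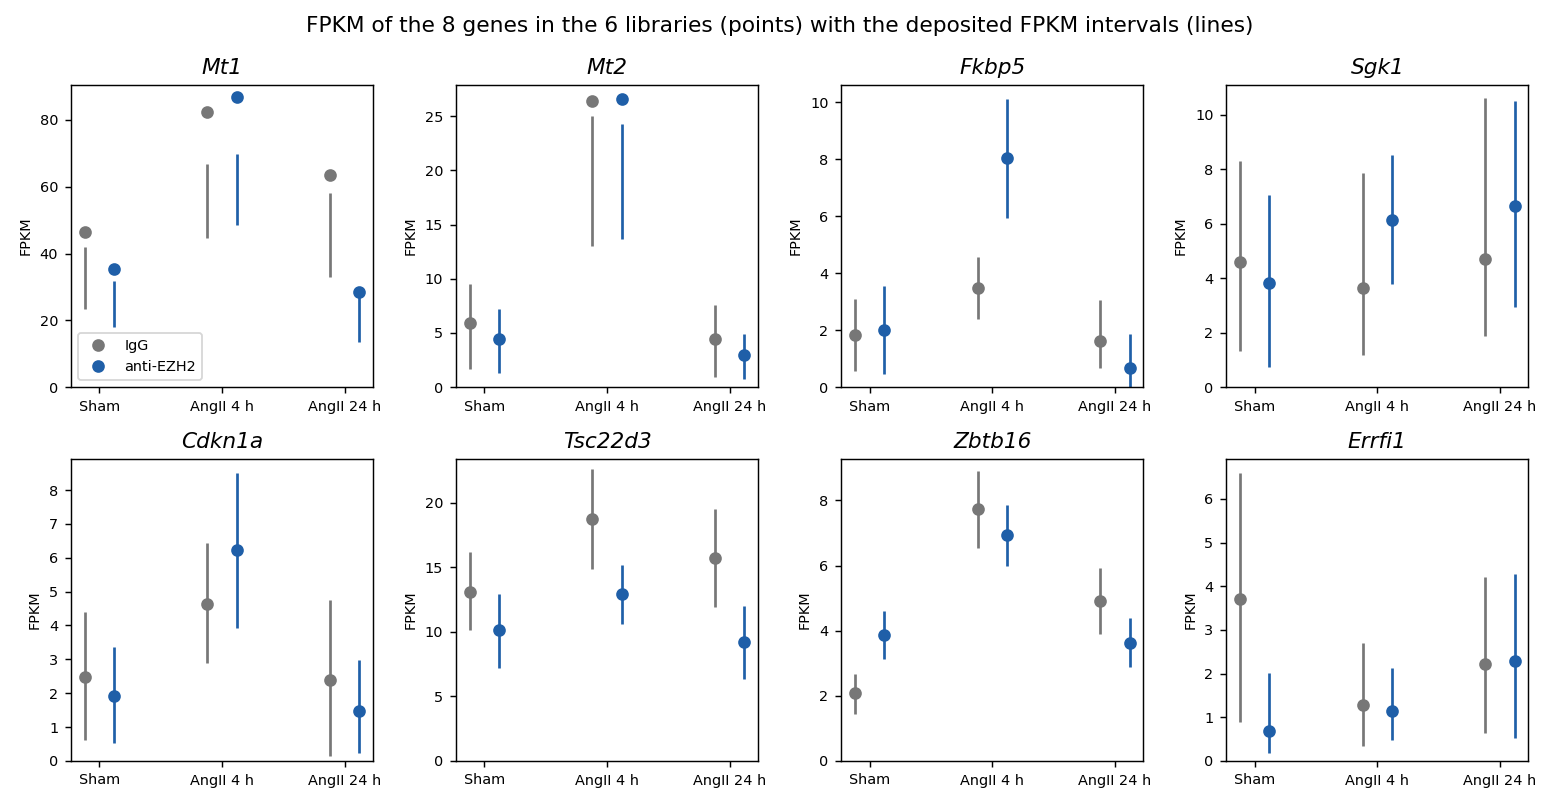
FPKM of the 8 genes (vertical axes, 1 panel per gene, each starting at 0) in Sham, AngII 4 h and AngII 24 h. Points are the FPKM of single libraries with IgG (grey) or anti-EZH2 (blue) and lines are the deposited FPKM intervals. The 4-h points of Mt2 (26.4 and 26.6) stand above the other 4 (2.96 to 5.88), and most points of Mt1 lie above their own intervals.

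Among the genes that are classical targets of the glucocorticoid receptor, Zbtb16 and Fkbp5 differed between treatments by more than 2-fold with 1 antibody each. Zbtb16 (ENSMUSG00000066687, chr9:48654311-48835945, minus strand) encodes a zinc finger repressor. Its FPKM was 2.07, 7.73 and 4.92 with IgG (Sham, AngII 4 h, AngII 24 h), and 3.87, 6.93 and 3.63 with anti-EZH2. The 4-h value was the highest with either antibody, and the Sham IgG library was the lowest of all 6.

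Zbtb16 was 1.51 (IgG) and 0.49 (anti-EZH2) higher at AngII 4 h than in Sham. Its difference of AngII 24 h from AngII 4 h was -0.68 and -0.48. The intervals did not overlap in either comparison with either antibody. By the interval widths, between 45 and 220 reads stood behind each value, and the ratio of AngII 4 h to Sham was 3.78 (2.70-5.37) and 1.78 (1.41-2.26). The ratios of AngII 24 h to AngII 4 h were 0.637 (0.490-0.824) and 0.527 (0.409-0.675). Against Sham, AngII 24 h was 0.84 higher with IgG, with intervals apart, and differed by 0.01 with anti-EZH2.

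Fkbp5 (ENSMUSG00000024222, chr17:28399095-28517524, minus strand) encodes a cochaperone that restrains the glucocorticoid receptor. Its FPKM was 1.82 in Sham, 3.49 at AngII 4 h and 1.62 after 24 h with IgG. With anti-EZH2 it was 1.99, 8.03 and 0.658. Both 4-h values were above the other 4, and the anti-EZH2 value was the highest of all.

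Fkbp5 was 0.62 (IgG) and 1.5 (anti-EZH2) higher at AngII 4 h than in Sham, and differed by -0.98 and -2.52 between AngII 24 h and AngII 4 h. In both comparisons the intervals were apart with anti-EZH2 and overlapped with IgG. With IgG the difference between AngII 24 h and AngII 4 h stood just inside the limit of 1 that marks 2-fold, and with a pseudocount of 0.1 Fkbp5 was called together with Mt2 and Cdkn1a. At AngII 24 h it differed from Sham by -0.37 and -1.02, with overlapping intervals. By the interval widths, few reads stood behind Fkbp5 in Sham (8.31 with IgG and 6.76 with anti-EZH2) and at AngII 24 h with anti-EZH2 (4.00).

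Tsc22d3 (ENSMUSG00000031431, chrX:140539528-140600659, minus strand) encodes GILZ, a leucine zipper protein through which glucocorticoids restrain inflammatory transcription. Its FPKM was 13.1, 18.7 and 15.7 with IgG and 10.1, 12.9 and 9.20 with anti-EZH2. It was the second most abundant member, and its values spanned little more than 2-fold over the 6 libraries. The difference between AngII 4 h and Sham was 0.34 and 0.07, and that between AngII 24 h and AngII 4 h was -0.32 and -0.10, with overlapping intervals in each.

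Sgk1 (ENSMUSG00000019970, chr10:21882184-21999903, plus strand) encodes a kinase that raises sodium transport downstream of corticosteroids and insulin. In the same order of treatments, its FPKM was 4.60, 3.64 and 4.69 with IgG and 3.83, 6.14 and 6.66 with anti-EZH2. AngII 24 h was the highest with either antibody, by little over Sham with IgG. The difference of AngII 4 h from Sham was -0.46 and 0.34, that of AngII 24 h from Sham -0.21 and 0.82, and that of AngII 24 h from AngII 4 h 0.25 and 0.47. With IgG, AngII 24 h was 0.03 above Sham without centring and 0.11 above it with interval midpoints. All intervals overlapped between treatments.

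Cdkn1a and Errfi1 are induced by several kinds of stress and growth signals. Cdkn1a (ENSMUSG00000023067, chr17:29090979-29100722, plus strand) had an FPKM of 2.47 in Sham, 4.64 at AngII 4 h and 2.40 after 24 h with IgG. It had 1.92, 6.22 and 1.47 with anti-EZH2. The 4-h libraries held the 2 highest values.

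Cdkn1a was 0.63 (IgG) and 1.20 (anti-EZH2) higher at AngII 4 h than in Sham, and differed by -0.90 and -1.41 between AngII 24 h and AngII 4 h. As for Fkbp5, the intervals were apart in both comparisons with anti-EZH2 and overlapped with IgG. Between AngII 24 h and Sham it differed by -0.27 and -0.21. By the interval widths, few reads stood behind Cdkn1a in Sham (7.08 with IgG and 7.40 with anti-EZH2) and at AngII 24 h (4.55 and 5.57).

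Errfi1 (ENSMUSG00000028967, chr4:150853919-150868892, plus strand) encodes MIG6, which binds and inhibits EGFR and its relatives. It was the lowest member on average, with an FPKM of 3.71, 1.27 and 2.21 with IgG and 0.679, 1.15 and 2.29 with anti-EZH2. The Sham libraries held both its highest and its lowest value, and their intervals (0.884 to 6.60 and 0.185 to 2.01) overlapped. The differences from Sham therefore ran in opposite directions, -1.41 and 0.21 at AngII 4 h and -0.87 and 1.33 after 24 h. In the table of the whole series the former were -0.51 and 0.16. Between AngII 24 h and AngII 4 h both were positive (0.54 and 1.12).

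**Figure D2:**
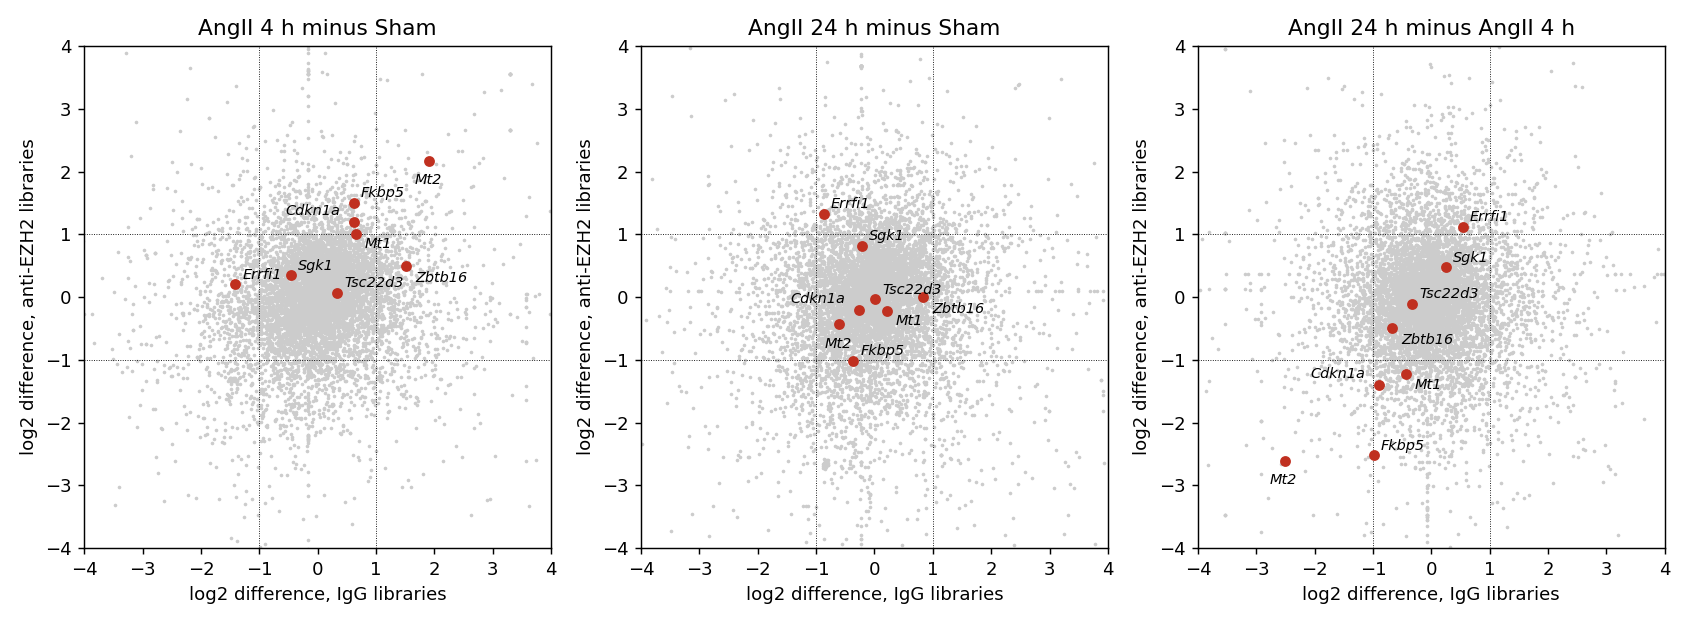
Differences of log2(FPKM + 0.5) between treatments with IgG (horizontal axes) and anti-EZH2 (vertical axes), relative to the median gene. Grey points are the 8507 genes with a mean FPKM of at least 1, of which 252, 318 and 273 lie beyond the axes, red points are the 8 members and dotted lines mark 2-fold. Mt2 lies past 2-fold with both antibodies in the first panel (1.91 and 2.17) and in the third (-2.51 and -2.61).

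Side by side, the members differed in size more than in direction. At AngII 4 h, 6 of the 8 (Mt1, Mt2, Fkbp5, Cdkn1a, Tsc22d3 and Zbtb16) were higher than in Sham with both antibodies, where 28.9% of all tested genes were, and none was lower with both, where 27.5% were. The same 6 were lower at AngII 24 h than at AngII 4 h with both antibodies, where 30.3% of genes were, except that Tsc22d3 with anti-EZH2 turned to 0.14 when the median was taken over genes with a mean FPKM of at least 5. Sgk1 and Errfi1 were higher at AngII 24 h than at AngII 4 h with both, where 22.9% of genes were, and in the table of the whole series Sgk1 with anti-EZH2 (-0.20) and Errfi1 with IgG (-0.17) had the other sign. These comparisons have the 4-h libraries in common, so that a high value there enters both. AngII 4 h was the highest of the 3 treatments for 6 of 8 members with both antibodies and for 14.1% of the genes. A single direction takes no account of size, and for Tsc22d3 it rested on differences of at most 0.34.

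Between AngII 24 h and Sham, no member was called (1.80% of genes were called higher and 3.02% lower). Zbtb16 was higher with both antibodies, where 26.9% of genes were, by 0.84 and 0.01 (0.26 and -0.66 in the table of the whole series), and Mt2, Fkbp5 and Cdkn1a were lower with both, where 28.1% were, although in the table of the whole series Cdkn1a with IgG was 0.62 higher. No member was called at AngII 4 h below Sham (2.95% of genes) or at AngII 24 h above AngII 4 h (1.47%).

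The number of members past 2-fold was not the same with each antibody. At AngII 4 h above Sham, 2 members were past 2-fold in the IgG libraries (Mt2 and Zbtb16, against 11.3% of genes) and 4 in the anti-EZH2 libraries (Mt1, Mt2, Fkbp5 and Cdkn1a, against 9.94%), of which Mt1 was just inside 2-fold under 4 alternatives (0.90 to 0.98) and Cdkn1a in the table of the whole series (0.94). At AngII 24 h below AngII 4 h, 1 was past 2-fold with IgG (Mt2, against 10.2% of genes) and 4 were with anti-EZH2 (Mt1, Mt2, Fkbp5 and Cdkn1a, against 13.6%), of which Mt1 was inside it with a minimum mean FPKM of 5 (-0.99) and Cdkn1a in the table of the whole series (-0.97). The FPKM intervals were apart with both antibodies for 3 members at AngII 4 h above Sham (Mt1, Mt2 and Zbtb16, against 2.97% of genes) and for 2 at AngII 24 h below AngII 4 h (Mt2 and Zbtb16, against 0.670%).

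The genes whose profile over the 6 libraries was nearest to that of Mt2, among 2844 others with a mean FPKM of at least 5, were Coro1c, Sun2 and Stat3, with root mean square differences of 0.44, 0.55 and 0.58 on the log2 scale. Stat3, a transcription factor activated by cytokines, had an FPKM of 7.00, 21.6 and 7.34 with IgG and 4.34, 11.1 and 3.16 with anti-EZH2. Coro1c, an actin-binding coronin, had 3.12, 7.62 and 3.29 and then 2.28, 13.9 and 2.08. Sun2, a nuclear envelope protein, had 3.86, 14.6 and 2.11 and then 1.80, 9.99 and 3.92. Each was highest in both 4-h libraries, which came with their choice by likeness to Mt2. Coro1c and Sun2 also reached the minimum mean FPKM of 5 only through the 4-h libraries, so that the filter favoured genes high there. Mt1 ranked 27th, at 0.75, and Fkbp5 and Cdkn1a, whose mean FPKM was below 5, stood at 0.56 and 0.62.

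Other genes known to be induced by glucocorticoids were described from a list of 25, of which 17 had a mean FPKM of at least 1. The list was chosen with earlier results of these data known, so that its counts are a description and not a test. At AngII 4 h, 13 of the 17 were higher than in Sham with both antibodies (28.9% of all tested genes) and none was lower with both (27.5%), and the median difference, as the mean of both antibodies, was 0.61 against 0.03 for all tested genes. The 2 past 2-fold with both (2.02% of all genes) were Pdk4 and Arrdc2. Pdk4, the kinase that holds back pyruvate oxidation, had an FPKM of 7.00, 53 and 19.6 with IgG and 8.09, 43.3 and 9.87 with anti-EZH2 in Sham, AngII 4 h and AngII 24 h. It was highest at AngII 4 h with both antibodies, by 2.67 and 2.08 over Sham. The arrestin domain protein gene Arrdc2, named after its values were seen, was higher by 1.66 and 1.94. Its FPKM was low, 0.326, 2.42 and 1.23 with IgG and 0.165, 2.59 and 0.885 with anti-EZH2. Its mean reached the minimum of 1 only through the 4-h libraries, so that the filter favoured a gene high there.

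At the other end of this list at AngII 4 h, the phosphatase gene Dusp1 differed from Sham by 0.46 and -0.23. At AngII 24 h, 11 of the 17 were higher than in Sham with both antibodies (26.9% of all genes) and 2 were lower (28.1%), with a median of 0.32 against -0.02 for all genes. None was past 2-fold with both, where 1.80% of all genes were higher and 3.02% lower. The highest was Gadd45g, a growth arrest gene, by 2.57 with IgG and 0.50 with anti-EZH2, and the lowest was again Dusp1, by -0.08 and -0.71. From AngII 4 h to AngII 24 h, Pdk4 was called lower (-1.49 and -1.72), where 1.94% of all genes were. With both antibodies, 10 of the 17 were lower at AngII 24 h than at AngII 4 h (30.3% of all genes) and 4 higher (22.9%). The median was -0.30 against -0.05.

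**Figure D3:**
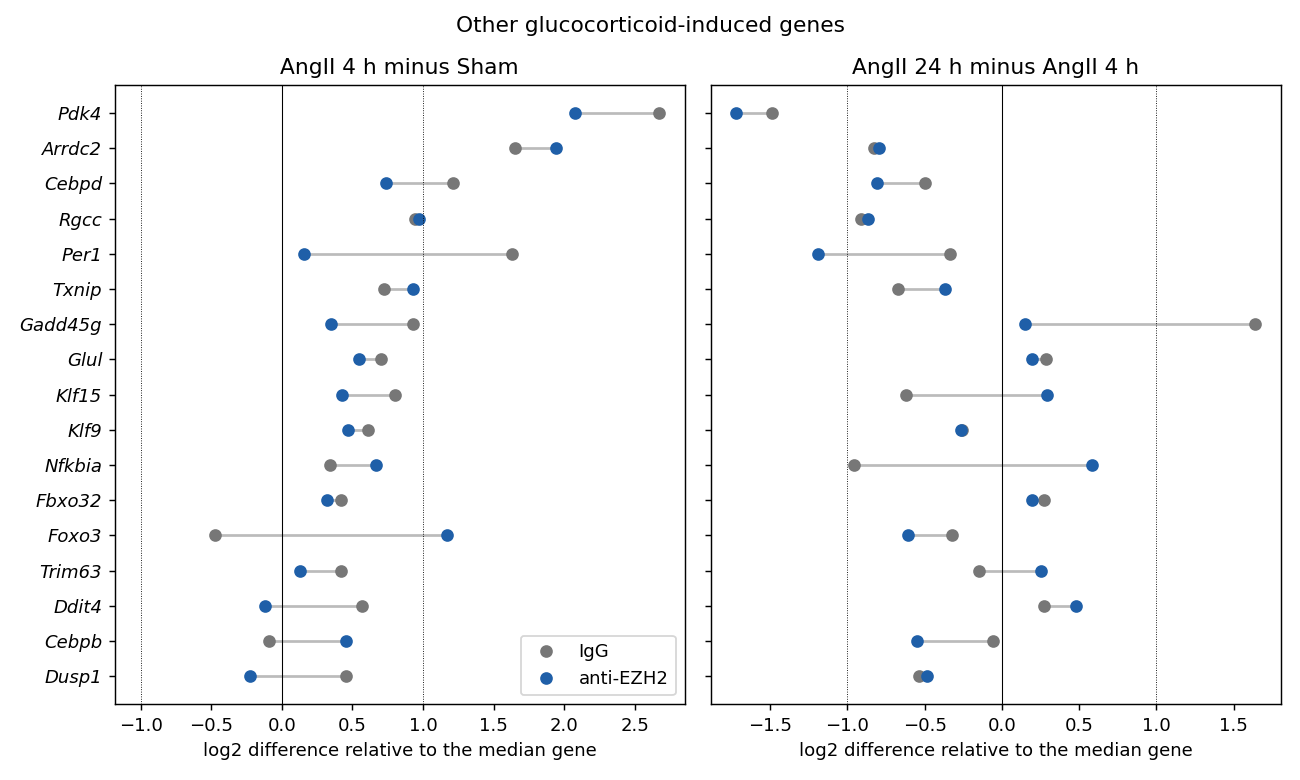
Log2 differences, relative to the median gene, of the 17 other glucocorticoid-induced genes with a mean FPKM of at least 1 (rows) with IgG (grey) and anti-EZH2 (blue), with grey bars joining the antibodies and dotted lines at 2-fold. In the left panel Pdk4 (2.67 and 2.08) and Arrdc2 (1.66 and 1.94) are past 2-fold with both antibodies.

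Genes for the receptors and for steroid handling, 9 of 10 of which had a mean FPKM of at least 1, gave a median difference from Sham of -0.16 at AngII 4 h and -0.06 after 24 h. None was past 2-fold with both antibodies at AngII 4 h, where 2.02% of all genes were higher and 2.95% lower. At AngII 24 h only Nr3c2 was, as lower, where 3.02% of all genes were. Nr3c2, the mineralocorticoid receptor, had an FPKM of 2.30, 0.640 and 0.571 with IgG and 1.71, 0.975 and 0.420 with anti-EZH2, and was the lowest of the list at both times. It was highest in the Sham library with either antibody, with differences of -1.46 and -0.85 at AngII 4 h and of -1.63 and -1.17 after 24 h. Its mean FPKM reached the minimum of 1 only through the Sham libraries, so that the filter favoured a gene lower than Sham. The highest of the list were Hsp90ab1, which encodes a chaperone of the receptors, at AngII 4 h (0.11 and 0.15), and Hsd11b1, which encodes the enzyme that regenerates active glucocorticoid, at AngII 24 h (-0.36 and 0.92).

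Of 12 other genes of zinc and metal handling, 5 had a mean FPKM of at least 1 and none was past 2-fold with both antibodies in any comparison. Between 1.47% and 3.02% of all genes were, by comparison and direction. The median difference from Sham was -0.31 at AngII 4 h and -0.30 after 24 h. Gclm, for a subunit of the enzyme of glutathione synthesis, had the highest mean at AngII 4 h from values in opposite directions (-1.56 with IgG and 1.96 with anti-EZH2). Slc30a1, a zinc exporter, was lowest at both times, with 0.57 and -1.93 at AngII 4 h and 0.38 and -1.83 after 24 h. In Sham, AngII 4 h and AngII 24 h its FPKM was 0.366, 0.944 and 0.831 with IgG and 2.95, 0.596 and 0.415 with anti-EZH2. The Sham anti-EZH2 library alone brought its mean to the minimum of 1 and gave it these places. Slc39a14, a zinc and iron importer, was highest at AngII 24 h with -0.01 and 1.19. At AngII 4 h none of the 5 was higher than in Sham with both antibodies (28.9% of all genes were) and 1 was lower (27.5%). At AngII 24 h 1 was higher (26.9%) and 2 were lower (28.1%), among them Gclm (-0.43 and -0.54).

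Of 14 genes of the p53 pathway, which also controls Cdkn1a, 8 had a mean FPKM of at least 1. At AngII 4 h, Gadd45a was called lower than Sham, with -1.04 and -1.12 (2.95% of all genes were), and none was called higher (2.02%). At AngII 24 h none was called (1.80% of all genes were higher and 3.02% lower). Ccng1, a cyclin induced by p53, was highest at AngII 4 h, with 0.57 and 0.42. At AngII 24 h, Mdm2, the ubiquitin ligase of p53, was highest with 0.51 and 0.21, and Bbc3, the apoptosis gene PUMA, was lowest with -2.64 and 0.08. The medians from Sham were -0.24 and -0.19.

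Only 4 of 12 genes of the ErbB receptors and their feedback had a mean FPKM of at least 1. Egfr, the receptor that Errfi1 inhibits, had an FPKM of 7.66, 0.882 and 3.95 with IgG and 1.44, 1.02 and 0.251 with anti-EZH2, and was the lowest of the list at both times. It was called lower at AngII 24 h than in Sham (-1.11 and -1.28), where 3.02% of all genes were, and at AngII 4 h differed by -2.73 and -0.62. The ligand gene Hbegf was highest at AngII 4 h (0.49 and 0.46) and after 24 h (0.27 and 0.15). The medians of the list were -0.27 and -0.19.

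Among 8 relatives and substrates of SGK1, 3 had a mean FPKM of at least 1. Pdpk1, the kinase that activates SGK1, was highest at both times, with 1.95 and 0.82 at AngII 4 h and 1.16 and 1.43 after 24 h. At AngII 24 h it was called higher than Sham, where 1.80% of all genes were. Its FPKM was 2.03, 10.4 and 6.14 with IgG and 1.73, 4.25 and 5.16 with anti-EZH2. The lowest were the substrate genes Ndrg2 at AngII 4 h (0.39 and 0.68) and Ndrg1 at AngII 24 h (0.25 and -0.41). With 3 genes, the medians of 0.83 and 0.58 describe only these.

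Clock genes were included because several are targets of the glucocorticoid receptor, and 7 of 11 had a mean FPKM of at least 1. None was called against Sham at either time, where between 1.80% and 3.02% of all genes were, by time and direction. Per2 was called higher at AngII 24 h than at AngII 4 h, where 1.47% of all genes were. Per2 had an FPKM of 0.492, 0.237 and 1.84 with IgG and 15.0, 0.289 and 3.50 with anti-EZH2, so that 1 library, Sham with anti-EZH2, held most of its signal and placed it lowest at AngII 4 h (-0.59 and -4.57). The transcription factor gene Tef was highest at AngII 4 h (0.64 and 0.48) and after 24 h (1.27 and 0.61), and Ciart, a clock repressor gene, was lowest at AngII 24 h (-0.97 and -0.26). The medians were 0.14 and -0.03.

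Markers of other cell types were set beside these results, and their part in them was not tested. Summed FPKM of 5 erythroid genes was 920.4 and 723.8 in the Sham libraries, 624.9 and 587.2 at AngII 4 h, and 1454 and 810.0 after 24 h (IgG, then anti-EZH2), so that it was lowest where the metallothioneins were highest. Of 6 adipose markers only Fabp4, which endothelial cells also express, was at an appreciable level, and Plin1, Retn and Lep were listed at 0 in all libraries. The 6 leukocyte markers summed to between 11.8 and 19.2, with S100a8 and S100a9 above 0 only at AngII 4 h with anti-EZH2. Fibroblast and endothelial markers, 4 of each, summed to between 26.5 and 47.4 and between 10.3 and 24.9, and the 4 atrial markers to 44.0 and 29.6 in Sham and to between 5.36 and 11.7 in the AngII libraries.

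The study compared anti-EZH2 with IgG within each treatment, and these pairs were examined together and singly. Over the 3 treatments as pairs, limma called none of the 8507 genes (0% higher and 0% lower at a Benjamini-Hochberg adjusted p under 0.05), with 543 genes at an unadjusted p under 0.05 and none of the members among them. The largest estimate for a member was that of Sgk1, 0.54 ± 0.30 (SE) on the log2 scale and higher in 2 of 3 treatments (adjusted p = 0.827 by limma). Tsc22d3 was lower with anti-EZH2 in all 3 treatments, at -0.31 ± 0.20 (adjusted p = 0.827 by limma). The estimate of Mt2 was -0.06 ± 0.21. With 3 pairs, estimates of this size could not be told from 0.

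Within single treatments, Fkbp5 at AngII 4 h was past 2-fold above IgG, with an FPKM of 8.03 against 3.49 and a log2 ratio of 1.15, and its intervals did not overlap. It was the only member above 2-fold there (10.3% of genes were), while in Sham and at AngII 24 h its log2 ratio was 0.26 and -0.38. Errfi1 in Sham was the only member past 2-fold below IgG (10.7% of genes were), at -1.68 from 0.679 against 3.71 with overlapping intervals, and it was not past 2-fold in the table of the whole series (-0.76). In the other treatments and directions no member was past 2-fold, where 13.3% of genes were higher in Sham, 7.92% lower at AngII 4 h, and 12.7% higher and 14.2% lower at AngII 24 h. Several ratios near that limit crossed it with other processing. Sgk1 at AngII 24 h, at 0.95, was between 1.03 and 1.13 with a pseudocount of 0.1, upper-quartile centring or a minimum mean FPKM of 5, and Zbtb16 in Sham, at 0.92, was 1.05 with a pseudocount of 0.1 and just past 2-fold with protein-coding genes alone. Mt1 at AngII 24 h, at -0.66, was -1.15 without centring, and Errfi1 at AngII 24 h, at 0.52, was 1.21 in the table of the whole series. The ratio of Fkbp5 at AngII 4 h stayed past 2-fold under each alternative computed for it, from 1.03 to 1.24. The intervals were also apart for Zbtb16 in Sham (3.87 against 2.07) and for Mt1 at AngII 24 h (28.5 against 63.6). The share of all genes with intervals apart between the antibodies was not counted. These intervals are not centred, and at AngII 24 h the median gene was lower with anti-EZH2 than with IgG (-0.49 on the log2 scale). The log2 ratio of Mt2 was between -0.20 and 0.06 in all 3 treatments.

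**Figure D4:**
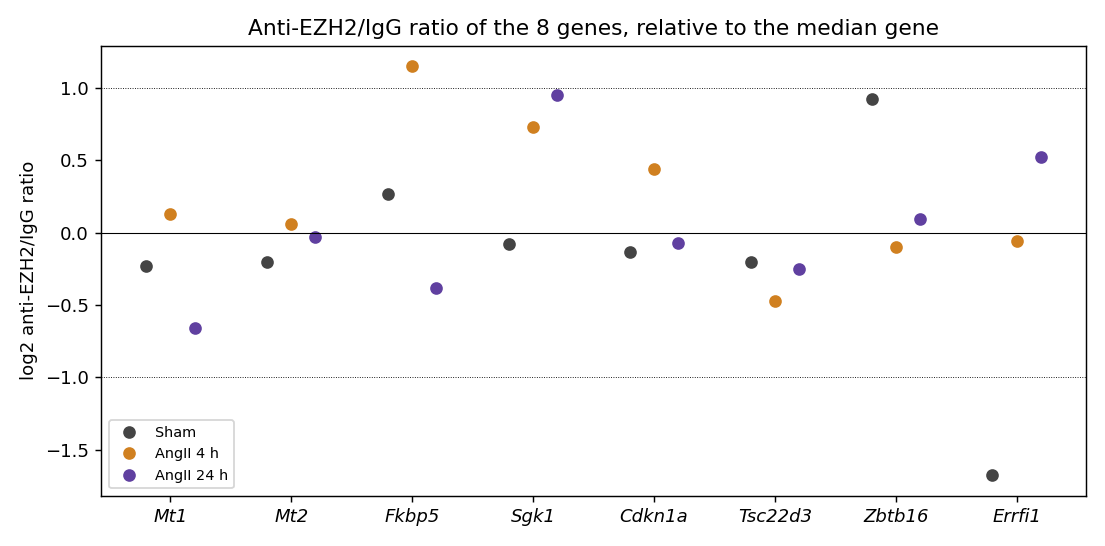
Log2 anti-EZH2/IgG ratio of the 8 genes (vertical axis), relative to the median gene, in Sham, AngII 4 h and AngII 24 h. Each point is the ratio of 1 pair of libraries and dotted lines mark 2-fold, which only Fkbp5 at AngII 4 h (1.15) and Errfi1 in Sham (-1.68) pass.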

How the data were processed

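RIP-seq libraries of mouse left ventricle, 6 in all, were analysed. The authors prepared stranded libraries, sequenced them on an Illumina instrument and aligned the reads to mm10 by TopHat2. FPKM were deposited as a table per library, with an interval for each value, and as 1 table of the whole series. The program that made the FPKM is not given in the sources used here, and the columns are those of a Cufflinks gene table. Groups came from the labels.

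From the separate tables, duplicated gene identifiers were summed and 787 values below 0.001 FPKM were set to 0. Genes with a mean FPKM of at least 1 and an OK status in all libraries were tested (8507, of which 6878 protein-coding). A pseudocount of 0.5 was added, and log2 values were centred on the median of each library. Reads were approximated from the interval widths, and their ratios were computed for members with 1 start site in the files. Depth was approximated from genes with 1 transcript of 1000 to 4000 nt. limma (3.58.1, R 4.3.3; trend, treatment as block) compared anti-EZH2 with IgG. The 2-fold rule and limma were run on simulated data with noise independent between libraries and without counting error. How they perform on the present libraries cannot be read from that simulation. Python 3.11.15 was used.

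The members and lists were chosen with earlier results of these data known. Genes named were the 8 members, the highest and lowest of each list against Sham at each time, and the 3 genes nearest to a called member. Alternatives were other pseudocounts, scalings, filters and folds, single antibodies, the series table, no block and each pair left out.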

Additional observations from a re-analysis of the deposited data

Results flagged for a closer look

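In 3 differences between treatments the antibodies gave opposite directions at least 2-fold apart, with 1 library each, so that the difference between the antibodies was not tested. For Errfi1 at AngII 4 h minus Sham, the log2 difference was -1.41 with IgG and 0.21 with anti-EZH2, which is 1.62 apart. In the table of the whole series these values were -0.51 and 0.16, less than 2-fold apart. For Errfi1 at AngII 24 h minus Sham, it was -0.87 and 1.33, or 2.20 apart. Both rest on the Sham libraries, where the intervals (0.884 to 6.60 with IgG and 0.185 to 2.01 with anti-EZH2) were wide and overlapped. For Sgk1 at AngII 24 h minus Sham, the log2 difference was -0.21 with IgG and 0.82 with anti-EZH2, 1.03 apart, and all intervals of that gene overlapped between treatments. The opposite direction depended on the processing, since the IgG value was 0.03 without centring and 0.11 with interval midpoints, and in the table of the whole series the values were -0.03 and 0.36.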

How the results depend on the processing

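With 1 library per treatment and antibody, no difference between treatments has a replicate check. Ratios of reads were computed for Mt1, Mt2 and Zbtb16 alone, and of these Mt2 had the fewest reads, down to 6.61 (AngII 24 h, IgG). By the same interval widths, other members went lower. Fkbp5 went down to 4.00 (AngII 24 h, anti-EZH2) and Cdkn1a to 4.55 (AngII 24 h, IgG). Errfi1 and Sgk1 went down to 5.79 and 6.11 (Sham, anti-EZH2). These genes have more than 1 start site in the files. Mt2 was called at AngII 4 h above Sham and at AngII 24 h below AngII 4 h under every alternative run. Members called at AngII 4 h above Sham numbered 4 past 1.5-fold, 2 with IgG alone and 4 with anti-EZH2 alone, against 1, and at AngII 24 h below AngII 4 h 3 past 1.5-fold, 3 with a pseudocount of 0.1 and 4 with anti-EZH2 alone, against 1. With 1 antibody alone, 1 member rather than 0 was called at AngII 4 h below Sham (Errfi1, IgG), at AngII 24 h above Sham (Errfi1, anti-EZH2), below Sham (Fkbp5, anti-EZH2) and above AngII 4 h (Errfi1, anti-EZH2). The cause was not tested. A minimum mean FPKM of 5 left 3 members, Mt1, Mt2 and Tsc22d3.

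The differences of Mt2 at AngII 4 h from Sham ranged from 1.62 to 2.07 (IgG) and from 1.92 to 2.45 (anti-EZH2). Of 432 values of member differences under the alternatives, 4 moved beyond their intervals, each of Zbtb16 and 3 of them in the table of the whole series. For anti-EZH2 against IgG, limma called 1 gene with a pseudocount of 0.1, without centring, without the filter or with protein-coding genes alone, and 4 without the treatment block (no replicate block), against 0. No member was called under any of these, and leaving out each pair in turn gave 0 genes each time. No treatment comparison could be paired, since the groups hold different mice.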

Other observations

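Lcn2, which encodes the iron-siderophore carrier lipocalin 2 and stood in the list of glucocorticoid-induced genes, had a mean FPKM below 1 and entered no count. It was named after its values were seen. Its FPKM was 1.87 (IgG) and 1.76 (anti-EZH2) at AngII 4 h, and after 24 h it was 0.419 and 0, and it was listed at 0 in both Sham libraries. Per1, another gene of that list, differed between AngII 4 h and Sham by 1.63 with IgG, from an FPKM of 9.03 against 2.24, and by 0.16 with anti-EZH2, from 6.60 against 4.77. Tat and Slc30a10 were listed at 0 in all 6 libraries.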
